A study of Sus scrofa with 12 samples.

Results

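The genes described here are those of the vascular endothelial growth factor (VEGF), angiopoietin and apelin systems, the 3 families of secreted ligands and receptors through which endothelial cells (ECs) are told to sprout, to survive or to remain quiescent. They were taken from the deposited count table by gene symbol, as the rows whose pig Ensembl identifier is paired with KDR, FLT1, NRP1, VEGFA, VEGFC, TEK, TIE1, ANGPT2, APLN or ESM1. Of these 10 genes, 9 had a row among the 21153 genes of the table. APLN, the gene of the ligand apelin, could not be matched and was not analysed here, and neither were its receptor APLNR and the second ligand APELA, so that the account covers the VEGF and angiopoietin systems.

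In the VEGF system, VEGFA binds the receptor VEGFR2, the product of KDR, which carries most of the mitogenic and permeability signal in ECs. FLT1 encodes VEGFR1, which binds VEGFA tightly but signals weakly and so can act as a trap for the ligand. NRP1 encodes neuropilin-1, a co-receptor that presents VEGFA to VEGFR2, and VEGFC is a ligand that acts mainly through VEGFR3, the product of FLT4. In the angiopoietin system, TEK encodes the receptor Tie2, whose activation by angiopoietin-1 keeps ECs quiescent and their junctions tight. ANGPT2 encodes angiopoietin-2, which ECs store and release themselves and which antagonizes Tie2 in many settings, and TIE1 encodes a partner receptor of Tie2. ESM1 encodes endocan, a proteoglycan secreted by ECs that is a widely used marker of VEGF-stimulated and tip ECs.

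Primary arterial ECs of 3 pigs, obtained from a slaughterhouse, were exposed for 48 h to laminar wall shear stress (WSS) of 2, 30 or 80 dyne/cm2 in Ibidi flow slides coated with gelatin, in medium with serum and heparin. Each donor gave 1 library at 2 dyne/cm2 (aneurysmal low WSS), 1 at 80 dyne/cm2 (aneurysmal supra-high WSS) and 2 at 30 dyne/cm2 (physiological WSS), which makes 12 RNA-seq libraries in 4 groups of 3. Set 1 at 30 dyne/cm2 was compared with 2 dyne/cm2 and set 2 with 80 dyne/cm2, within donors. The deposited labels call the cells aortic and place 80 dyne/cm2 and its control in another slide type, with more cells seeded per channel, than 2 dyne/cm2 and its control, whereas the methods of the study name coronary arteries and a single slide type. No transgene or added agent is named for any group, and all groups shared medium and coating.

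The libraries held 29606854 to 41058902 counts on genes. KLF2, a transcription factor induced by laminar flow, served as a check of the labels. It stood at 2.72, 11.9 and 8.68 CPM (counts scaled to library size with TMM factors) at 2 dyne/cm2 and at 109 to 170 CPM in set 1, on the log2 scale -4.35 (adjusted p = 0.00906). The endothelial markers with a row (6 of 9) summed to 4171 to 5144 CPM at 2 dyne/cm2, 5853 to 6735 CPM in set 1, 5274 to 6353 CPM in set 2 and 7049 to 7333 CPM at 80 dyne/cm2. The sum was thus lower at 2 dyne/cm2 and higher at 80 dyne/cm2 than in either control set, and its part in the results that follow was not tested. PECAM1, the highest of the 6, averaged 1960 CPM at 2 dyne/cm2, 3222 in set 1, 2886 in set 2 and 3810 at 80 dyne/cm2. At 2 dyne/cm2 the log2 fold changes of PECAM1 (-0.71), EMCN (-1.25) and ESAM (-0.56) had an adjusted p under 0.05. CDH5 (-0.11) and ERG (-0.22) did not pass, and ROBO4 was higher (0.50, adjusted p = 0.0251). At 80 dyne/cm2 only EMCN passed (2.33, adjusted p = 0.0112). The 7 smooth muscle and pericyte markers summed to 2.29 to 8.25 CPM at 2 dyne/cm2, to 1.53 to 2.78 CPM at 30 dyne/cm2 and to 1.87 to 2.20 CPM at 80 dyne/cm2. Of these, PDGFRB had 1.03 to 6.999 CPM at 2 dyne/cm2, MYH11 and TAGLN were detected in every library at 0.127 to 0.8002 CPM, and ACTA2, RGS5, CNN1 and DES stood at 0 to 0.437 CPM. The sum of the 5 fibroblast markers ran from 12.03 to 221 CPM and overlapped between all groups, but within donors several of them moved with WSS. At 2 dyne/cm2 COL1A1 (1.44, adjusted p = 0.0590), COL1A2 (0.96, adjusted p = 0.0325) and PDGFRA (1.09, adjusted p = 0.0300) had positive log2 fold changes in all 3 donors. DCN, which was too low to be tested there, had 0.627 to 4.55 CPM at 2 dyne/cm2 and 0.0904 to 0.446 CPM in the other groups. At 80 dyne/cm2 COL1A1 (-1.34, adjusted p = 0.0668) and COL1A2 (-1.46, adjusted p = 0.104) were negative in all 3 donors. The difference between the responses to 2 and to 80 dyne/cm2 had an adjusted p under 0.05 for 3 of the 4 fibroblast markers tested, all higher. Of all 11568 genes tested for it, 37.1% passed, 19.3% higher. The part of these markers in the results that follow was not tested. The leukocyte markers PTPRC and CD3E were at or near 0. In such bulk libraries, fewer cells that express a gene and less RNA per cell cannot be told apart.

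At 2 vs. 30 dyne/cm2 TEK and ANGPT2 had the largest fitted changes of the 9 genes. TEK, the angiopoietin receptor, fell 7.75-fold and ANGPT2, its context-dependent antagonist, rose 5.74-fold, while FLT1, the VEGF trap receptor, fell 2.62-fold. A gene was called here when its change was at least 2-fold and its p, adjusted over all genes tested by the Benjamini-Hochberg method, was under 0.05 in the quasi-likelihood test of edgeR with the donor as a block. Of the 9 genes, 3 were called (33.3%, 1 higher and 2 lower), where 9.60% of all 11226 genes tested were called (5.06% higher and 4.54% lower). These 3 were also the ones whose CPM did not overlap between the groups, which was the case for 37.8% of all genes. The median log2 fold change of the 9 genes was -0.56, and that of all genes tested was 0.00.

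**Figure D1:**
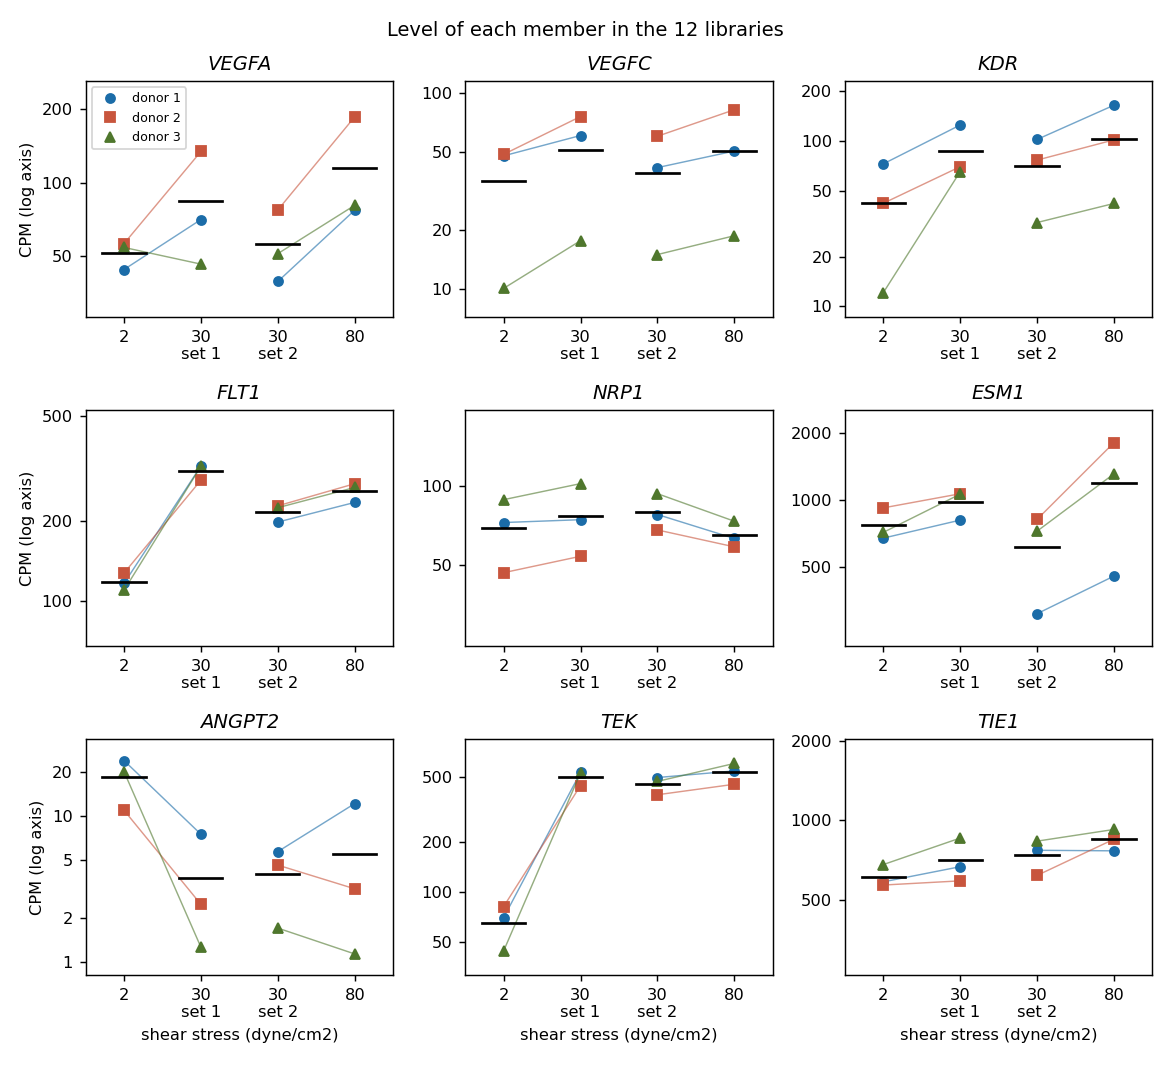
CPM of each of the 9 genes on a log axis for every library, by WSS in dyne/cm2 and by set at 30 dyne/cm2, with 1 symbol per donor, thin lines joining a donor's libraries within a comparison and black bars for the arithmetic mean of 3 donors. TEK at 2 dyne/cm2 lies between 44.2 and 81.9 CPM, below every other library, and ANGPT2 at 2 dyne/cm2 lies between 10.97 and 24.0 CPM, above its controls in set 1.

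TEK (ENSSSCG00000005122, Sscrofa11.1 chromosome 1, 195938177 to 196052294) stood at 70.2, 81.9 and 44.2 CPM at 2 dyne/cm2 in donors 1, 2 and 3, against 529, 441 and 526 CPM in set 1. In set 2 the same donors had 493, 388 and 468 CPM, and at 80 dyne/cm2 541, 449 and 600 CPM. The libraries at 2 dyne/cm2 thus lay well below all 9 others, while set 2, set 1 and 80 dyne/cm2, in rising order of their means, overlapped. The log2 fold change at 2 dyne/cm2 was -2.95 (standard error 0.24, 95% interval -3.57 to -2.34, adjusted p = 0.00479), with values of -2.91, -2.43 and -3.57 in the donors. It kept its call under all 11 alternatives tried, with log2 fold changes from -3.22 to -2.66.

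ANGPT2 (ENSSSCG00000015753, chromosome 15, 37544177 to 37600925) was sparse, with 36 to 936 counts per library. It stood at 24.0, 10.97 and 20.2 CPM at 2 dyne/cm2 and at 7.50, 2.48 and 1.26 CPM in set 1. Every library at 2 dyne/cm2 exceeded every library of set 1, although the controls themselves differed several-fold between donors. On the log2 scale the rise was 2.52 (standard error 0.47, 95% interval 1.32 to 3.72, adjusted p = 0.0214), with 1.67, 2.12 and 3.94 in donors 1, 2 and 3. Its size depended on donor 3, without which it was 1.90 (adjusted p = 0.0116), and the call was lost without donor 2 (2.70, adjusted p = 0.0602) or without the donor block (2.31, adjusted p = 0.0771). Over all 11 alternatives the adjusted p ran from 3.23e-08 to 0.0771 and the log2 fold change from 1.90 to 3.04.

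TIE1 (ENSSSCG00000003950, chromosome 6, 167919662 to 167947253), the partner receptor of Tie2, stood at 583, 567 and 678 CPM at 2 dyne/cm2 and at 666, 589 and 855 CPM in set 1. The groups overlapped, and the log2 fold change was -0.18 (95% interval -0.45 to 0.09, adjusted p = 0.255). A decrease of the size seen for TEK lay outside this interval.

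Because TEK and ANGPT2 moved in opposite directions, their counts were also compared within each library, which needs no normalization between libraries. ANGPT2 counts amounted to 34.2%, 13.4% and 45.7% of TEK counts at 2 dyne/cm2 in donors 1, 2 and 3, and to 1.42%, 0.562% and 0.239% in set 1. In set 2 they were 1.16%, 1.19% and 0.365%, and at 80 dyne/cm2 2.25%, 0.705% and 0.189%. The 2 genes differ in length, so these shares describe reads rather than molecules, but the length is the same in every library and cancels in a change. The log2 of the ratio rose by 5.58 ± 1.73 (SD, n = 3) at 2 dyne/cm2, or between 23.8-fold and 191-fold in the single donors. At 80 dyne/cm2 it changed by -0.25 ± 1.05, with donor 1 positive and donors 2 and 3 negative. The ratio of TEK to TIE1 changed by -2.78 ± 0.43 at 2 dyne/cm2 and by 0.04 ± 0.25 at 80 dyne/cm2. With 3 donors an exact paired permutation test cannot give a 2-sided p below 0.25, and these ratios are given as a description.

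**Figure D2:**
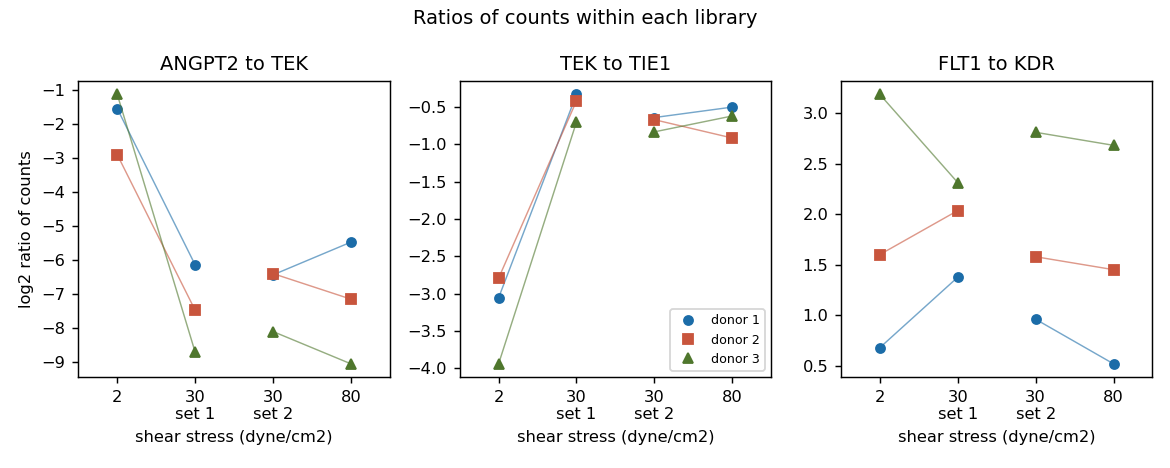
Log2 ratio of the counts of ANGPT2 to TEK, TEK to TIE1 and FLT1 to KDR within each library, by WSS in dyne/cm2 and by set at 30 dyne/cm2, with 1 symbol per donor and lines joining a donor's libraries within a comparison. ANGPT2 to TEK lies above all other libraries in the 3 at 2 dyne/cm2, and TEK to TIE1 below them, while FLT1 to KDR differs more between donors than between conditions.

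Among the VEGF receptors, FLT1 (ENSSSCG00000009320, chromosome 11, 5620698 to 5797095) varied least between donors. It stood at 116, 127 and 109 CPM at 2 dyne/cm2, 324, 286 and 323 CPM in set 1, 199, 229 and 225 CPM in set 2 and 236, 277 and 268 CPM at 80 dyne/cm2. The 4 groups did not overlap, in the rising order 2 dyne/cm2, set 2, 80 dyne/cm2 and set 1. The log2 fold change at 2 dyne/cm2 was -1.39 (standard error 0.11, 95% interval -1.66 to -1.11, adjusted p = 0.00441). Against set 2, the fall was smaller than 2-fold (-0.88, adjusted p = 0.00599), and in the alternatives the adjusted p lay between 2.21e-21 and 0.0139.

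KDR (ENSSSCG00000008844, chromosome 8, 41809116 to 41856379), the main signalling receptor, stood at 72.6, 41.9 and 12.1 CPM at 2 dyne/cm2 and at 125, 69.8 and 65.1 CPM in set 1. Each donor was lower at 2 dyne/cm2 than in its own control, but the groups overlapped because donor 1 was high throughout. Its fitted log2 fold change was -1.27 (standard error 0.37, 95% interval -2.21 to -0.33) and did not pass (adjusted p = 0.0609), with -0.78, -0.73 and -2.43 in donors 1, 2 and 3. The size rested on donor 3, without which it was -0.74 (adjusted p = 0.0189). KDR was called with DESeq2 (-1.28, adjusted p = 6.75e-04), without donor 1 (-1.56, adjusted p = 0.0389) and in a fit over 12 libraries (-1.31, adjusted p = 0.00544), and the adjusted p ran from 6.75e-04 to 0.305 over the alternatives. The ratio of FLT1 to KDR counts changed by -0.09 ± 0.84 at 2 dyne/cm2 (log2, SD, n = 3), negative in donors 1 and 2 and positive in donor 3.

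NRP1 (ENSSSCG00000011102, chromosome 10, 56280673 to 56430832), the VEGF co-receptor, stood at 72.5, 46.8 and 88.4 CPM at 2 dyne/cm2 and at 74.3, 54.0 and 102 CPM in set 1. These groups overlapped, and the difference of -0.13 (95% interval -0.34 to 0.08, adjusted p = 0.269) did not pass the test.

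Of the VEGF ligands, VEGFA (ENSSSCG00000001695, chromosome 7, 38746393 to 38762282) stood at 44.1, 56.3 and 54.3 CPM at 2 dyne/cm2 and at 70.7, 134 and 46.4 CPM in set 1. Donors 1 and 2 were lower than their controls and donor 3 was higher. Its log2 fold change of -0.56 had a 95% interval of -1.30 to 0.18 (adjusted p = 0.203). Without donor 3 it was -0.95 (adjusted p = 0.0377), which is below 2-fold, and against set 2 it was -0.07, with an adjusted p of 0.0377 to 0.752 over the alternatives.

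VEGFC (ENSSSCG00000015770, chromosome 15, 39037764 to 39136234) stood at 47.6, 48.4 and 10.0 CPM at 2 dyne/cm2 and at 60.4, 75.4 and 17.6 CPM in set 1. It was lower in each donor, and the fitted value of -0.58 (standard error 0.12) passed with an adjusted p of 0.0263 but was short of 2-fold. By the adjusted p alone 25.8% of all genes passed at 2 dyne/cm2, and 4 of the 9 genes. ESM1 (ENSSSCG00000016900, chromosome 16, 34184255 to 34193877), the marker of VEGF-stimulated ECs, stood at 673, 921 and 714 CPM at 2 dyne/cm2 and at 812, 1067 and 1062 CPM in set 1. The log2 fold change was -0.34 (95% interval -0.64 to -0.03, adjusted p = 0.0992), and against set 2 its sign turned (0.43, adjusted p = 0.250).

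**Figure D3:**
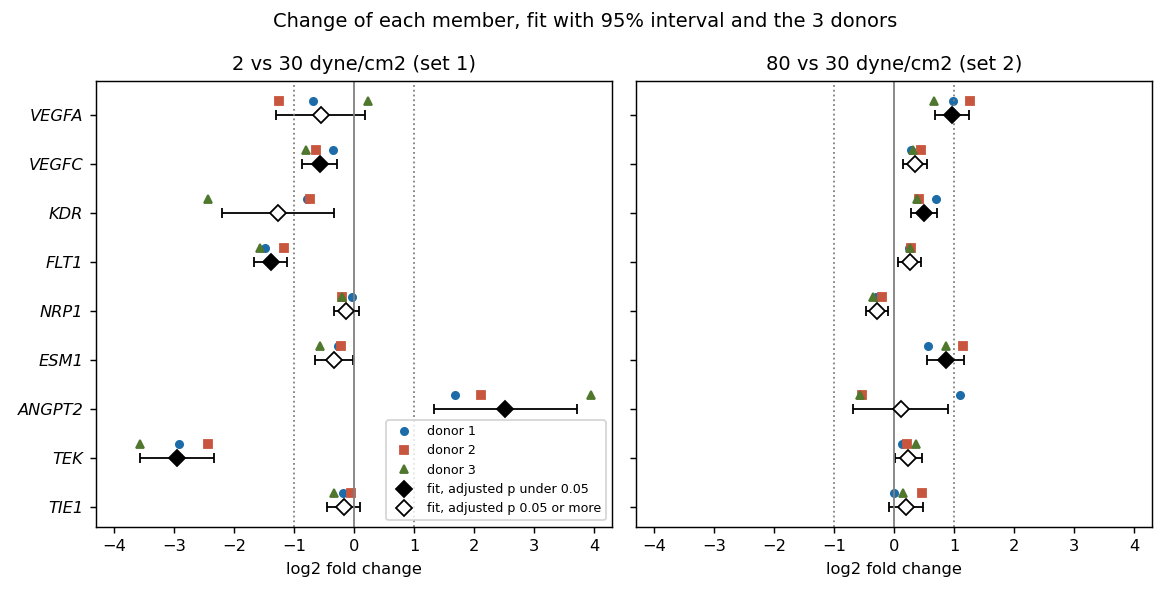
Log2 fold change of the 9 genes at 2 vs. 30 dyne/cm2 (left) and at 80 vs. 30 dyne/cm2 (right), as the fitted value with its 95% interval (diamonds, filled where the adjusted p is under 0.05) and the value of each of 3 donors (small symbols), with dotted lines at a 2-fold change. TEK, FLT1 and KDR, the last with an open diamond, lie below and ANGPT2 above the dotted lines at 2 dyne/cm2. At 80 dyne/cm2 all fitted values lie within them, with VEGFA the highest at 0.96.

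At 80 vs. 30 dyne/cm2 the pattern was another one, and the largest values belonged to the ligand VEGFA and to ESM1 rather than to the Tie receptors. None of the 9 genes was called by the quasi-likelihood test of edgeR (0 of 9, where 2.20% of 11187 genes tested were called), and none with DESeq2, while 7 had an unadjusted p under 0.05. The share of all genes under that unadjusted p was not determined here, so the count is no result about the 9 genes. By the adjusted p alone 3 passed, VEGFA, ESM1 and KDR, all higher, where 8.40% of all genes passed and 4.36% were higher. The median log2 fold change of the 9 genes was 0.26, and that of all genes was -0.01. FLT1, ANGPT2, NRP1, TEK, TIE1 and VEGFC had adjusted p between 0.0502 and 0.870.

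VEGFA stood at 77.3, 186 and 80.9 CPM at 80 dyne/cm2 and at 39.4, 77.4 and 51.3 CPM in set 2. Each donor was higher at 80 dyne/cm2, but the groups overlapped by a narrow margin through donor 2, whose control had the highest VEGFA of set 2. Fitted over the donors, the log2 fold change was 0.96 (standard error 0.12, 95% interval 0.68 to 1.25, adjusted p = 0.00678), a 1.95-fold difference. Without donor 3 it passed 2-fold (1.12, adjusted p = 0.0289). Against set 1 it was 0.46 (adjusted p = 0.252), without the donor block it was 1.03 (adjusted p = 0.600), and the adjusted p lay between 2.07e-12 and 0.600 over the alternatives.

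ESM1 stood at 455, 1813 and 1312 CPM at 80 dyne/cm2 and at 308, 818 and 724 CPM in set 2, higher in each donor while the groups overlapped. This gave a log2 fold change of 0.85 (standard error 0.13, 95% interval 0.54 to 1.17, adjusted p = 0.0128), or 1.81-fold. Donor 1 had the lowest ESM1 in both groups. Against set 1 the value was 0.08 (adjusted p = 0.930), and the adjusted p lay between 1.95e-10 and 0.930 over the alternatives.

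KDR stood at 165, 102 and 41.9 CPM at 80 dyne/cm2 and at 102, 76.6 and 32.1 CPM in set 2. It was higher in each donor by 0.69, 0.41 and 0.38 on the log2 scale, and the fitted value was 0.49 (standard error 0.09, adjusted p = 0.0231). Against set 1 it was 0.11 (adjusted p = 0.876), within a range of 0.00180 to 0.876 over the alternatives. FLT1, the other VEGF receptor tyrosine kinase among the 9 genes, did not overlap between 80 dyne/cm2 and set 2, as was the case for 14.9% of all genes. Its log2 fold change of 0.26 (95% interval 0.06 to 0.45) did not pass the test (adjusted p = 0.102), and against set 1 its sign turned (-0.26).

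VEGFC stood at 50.3, 81.7 and 18.6 CPM at 80 dyne/cm2 and at 41.4, 59.9 and 14.9 CPM in set 2, a log2 fold change of 0.35 (adjusted p = 0.0502). NRP1 stood at 63.0, 58.6 and 73.3 CPM and at 77.7, 67.9 and 93.2 CPM, lower in each donor with a log2 fold change of -0.29 (95% interval -0.48 to -0.10, adjusted p = 0.0688). It was the only one of the 9 genes with a negative fitted value in this comparison.

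None of TEK, TIE1 and ANGPT2 passed the test at 80 dyne/cm2. TEK had a log2 fold change of 0.23 (95% interval 0.00 to 0.46, adjusted p = 0.185) and TIE1, with 765, 847 and 922 CPM against 769, 617 and 832 CPM, one of 0.19 (95% interval -0.09 to 0.48, adjusted p = 0.350). ANGPT2 stood at 12.2, 3.17 and 1.13 CPM at 80 dyne/cm2 and at 5.71, 4.61 and 1.70 CPM in set 2, so that donor 1 was higher and donors 2 and 3 were lower than their controls. Its fitted value of 0.11 had a 95% interval of -0.69 to 0.90 (adjusted p = 0.870), and without donor 1 it turned to -0.57.

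The choice of the set at 30 dyne/cm2 bore on several of these values. Set 2 minus set 1, at the same WSS, gave 0 calls among the 9 genes with edgeR's quasi-likelihood test and 0 with DESeq2, where 0.00896% of 11163 genes were called, and 4 of the 9 genes had an unadjusted p under 0.05. The share of all genes under that unadjusted p was not determined. The median log2 fold change of the 9 genes was nevertheless -0.37, with 6 of 9 values negative. ESM1 was lower in set 2 by -0.77 (adjusted p = 0.152), FLT1 by -0.51 (adjusted p = 0.103), VEGFA by -0.50 (adjusted p = 0.253), KDR by -0.38 (adjusted p = 0.361) and VEGFC by -0.37 (adjusted p = 0.135). FLT1, ESM1, VEGFC and TEK were lower in set 2 in all 3 donors, and the groups did not overlap for FLT1, as for 10.1% of all genes. For TEK, TIE1, NRP1 and ANGPT2 the fitted values lay between -0.14 and 0.27. If the labels are followed and the sets are paired with the conditions as here, slide type and seeding density differ between the sets. These 2 factors cannot be told apart here.

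**Figure D4:**
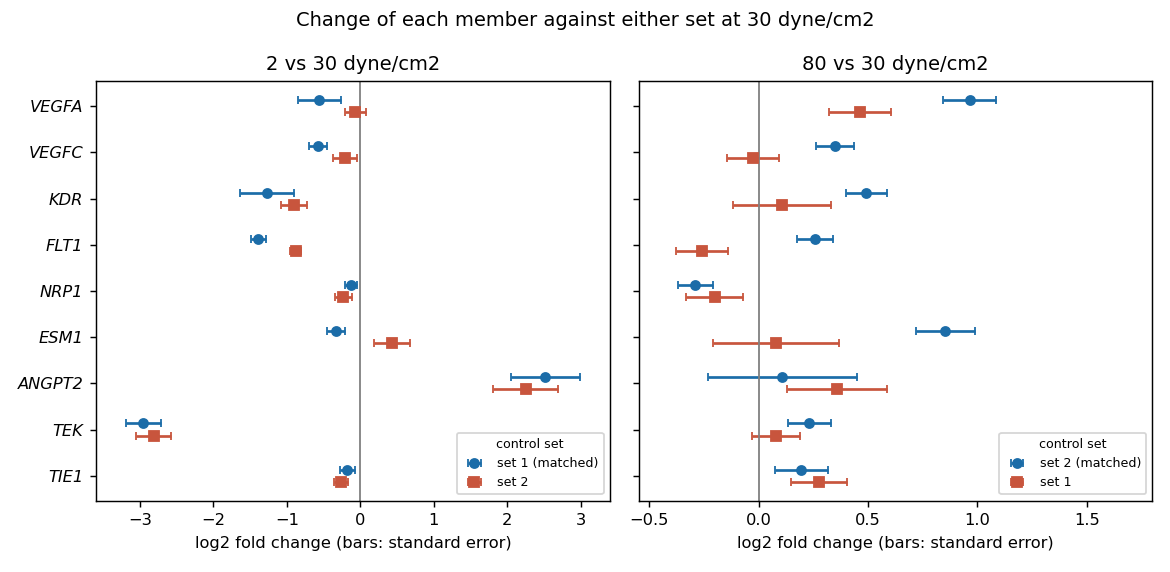
Log2 fold change of the 9 genes, with its standard error, at 2 vs. 30 dyne/cm2 (left) and 80 vs. 30 dyne/cm2 (right), computed against the matched set at 30 dyne/cm2 (circles) and against the other set (squares), with a different scale in each panel. TEK and ANGPT2 at 2 dyne/cm2 change little with the set, whereas VEGFA at 80 dyne/cm2 drops from 0.96 to 0.46 and ESM1 from 0.85 to 0.08.

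Whether the responses to low and to supra-high WSS differed was tested directly, as the change at 2 minus the change at 80 dyne/cm2 over all 12 libraries in the same kind of model. At an adjusted p under 0.05 it passed for 7 of the 9 genes (77.8%, 6 lower and 1 higher), where it passed for 37.1% of 11568 genes (17.9% lower and 19.3% higher). The difference was -3.14 for TEK (standard error 0.29, adjusted p = 1.07e-04), -1.64 for FLT1 (0.13, adjusted p = 6.66e-05) and 2.57 for ANGPT2 (0.78, adjusted p = 0.0278). For KDR it was -1.78 (0.39, adjusted p = 0.00627), for VEGFA -1.51 (0.34, adjusted p = 0.00810), for ESM1 -1.21 (0.40, adjusted p = 0.0408) and for VEGFC -0.90 (0.20, adjusted p = 0.00684). TIE1 (-0.37, adjusted p = 0.0704) and NRP1 (0.17, adjusted p = 0.483) did not pass. The count was 6 without donor 1, 3 without donor 2, 4 without donor 3 and 2 without the donor block, and FLT1 and TEK were the genes that passed in each of these fits. Each response was taken against its own set at 30 dyne/cm2, so set 2 minus set 1 is a part of every difference of responses given. That part was -0.77 for ESM1, -0.51 for FLT1, -0.50 for VEGFA, -0.38 for KDR and -0.37 for VEGFC. It was -0.14 for TEK and positive for ANGPT2, NRP1 and TIE1. The difference was not tested against a single control set.

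Donors differed most in VEGFC, whose mean over 4 libraries was 49.9, 66.4 and 15.3 CPM in donors 1, 2 and 3, a 4.34-fold range. KDR ranged 3.07-fold between the donors, ANGPT2 2.33-fold, ESM1 2.06-fold and VEGFA 1.96-fold. FLT1 and TEK, with ranges of 1.06-fold and 1.20-fold, and TIE1 with 1.25-fold were the most even. For VEGFC, KDR, NRP1 and ESM1 the donors were thus further apart than the group means were, whereas for TEK and FLT1 the group means were further apart than the donors.

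After each donor's mean was subtracted, the level of TEK followed that of FLT1 over the 12 libraries (Pearson's r = 0.94) and that of KDR (r = 0.88), and ran opposite to that of ANGPT2 (r = -0.93). VEGFA and ESM1 followed each other less closely (r = 0.62), and VEGFA was only loosely related to its receptors KDR (r = 0.44) and FLT1 (r = 0.56). The points share donors and conditions, and the coefficients describe these libraries without a test. The genes whose pattern was most like that of TEK, among 10138 genes with a symbol, were RAB11A, TMPRSS6, TRIM26, TIGAR and SERPINB10 (r from 0.992 to 0.994). For VEGFA they were TLE3, SLAIN2, MEX3C, PPP2R5B and P4HA2 (r from 0.910 to 0.935).

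The other genes of these pathways were taken from a list of 30, of which 26 had a row and 21 passed the filter on low counts at 2 vs. 30 dyne/cm2. There 4 of 21 were called (1 higher and 3 lower, against 9.60% of all genes tested, 5.06% higher and 4.54% lower), 17 were not, and the median log2 fold change was -0.11. FLT4, the receptor of VEGFC, rose by 1.42 (adjusted p = 0.0314), from 0.569, 1.06 and 1.05 CPM in set 1 to 2.03, 1.68 and 3.43 CPM. It reached 1 CPM in only 2 libraries of set 1 and so passed the filter through the libraries at 2 dyne/cm2, where it is high, and without a filter its value was 1.399 (adjusted p = 0.0343). NRP2, a co-receptor for VEGFC, fell by 1.00 (adjusted p = 0.0198) and lay at the 2-fold threshold, and its call was lost under 7 of 10 alternatives. FLT4 lost its call without donor 1 (1.21, adjusted p = 0.0944), without donor 3 (1.24, adjusted p = 0.103) or without the donor block (1.43, adjusted p = 0.0724). Over the alternatives the adjusted p of FLT4 ran from 0.0120 to 0.103 and that of NRP2 from 1.36e-05 to 0.154.

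DLL4, the Notch ligand induced by VEGF in tip cells, fell by 1.55 (adjusted p = 0.00905). It stood at 56.5, 41.6 and 4.75 CPM at 2 dyne/cm2 and at 214, 86.2 and 15.9 CPM in set 1, lower in each donor while the groups overlapped. Against set 2 the value was -0.60 (adjusted p = 0.251), and the adjusted p ran from 9.24e-12 to 0.364 over the alternatives. NR4A1, an immediate early gene that VEGF and other stimuli induce, fell by 3.81 (adjusted p = 0.00741), from 69.8, 16.3 and 30.7 CPM to 2.52, 2.39 and 2.18 CPM, and its call held under all 10 alternatives run for it.

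Short of 2-fold but with an adjusted p under 0.05, PTPRB, the phosphatase VE-PTP that holds Tie2 inactive, was lower by -0.45 at 2 dyne/cm2 (adjusted p = 0.0273, and 7.57e-04 to 0.199 over the alternatives). SVEP1, an extracellular matrix ligand of TIE1, was higher by 0.66 (adjusted p = 0.0474), which did not pass against set 2 (0.47, adjusted p = 0.101). FOXO1, which drives ANGPT2 transcription when Tie2 is inactive, had a log2 fold change of 0.83 and did not pass (adjusted p = 0.0563). From the VEGF signalling genes, SHB (-0.67, adjusted p = 0.0243) and MAPKAPK2 (0.41, adjusted p = 0.0214) also passed below 2-fold. Over the alternatives their adjusted p reached 0.0807 and 0.106. At 80 dyne/cm2 SHB was higher (0.41, adjusted p = 0.0358). Of the feedback inhibitors, SPRED1, SPRED2 and SPRY4 were lower (-0.40, -0.72 and -0.68) and SPRY2 was higher (0.59), each with an adjusted p under 0.05 and below 2-fold. These values depended on the control set. Against set 2 SPRED1 (-0.050, adjusted p = 0.833) and SPRED2 (-0.011, adjusted p = 0.968) did not pass, SPRY4 had the opposite sign (0.64, adjusted p = 0.192) and SPRY2 was called (1.67, adjusted p = 0.0145). ANGPT1, the agonist of Tie2, had 0 to 3 counts per library and ANGPT4 0 to 2.

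At 80 vs. 30 dyne/cm2, 2 of the 19 other pathway genes tested were called (10.5%, against 2.20% of all genes), 17 were not, and the median log2 fold change was 0.22. NR4A1 rose by 1.82 (adjusted p = 0.00360), from 9.86, 11.3 and 20.2 CPM in set 2 to 26.8, 58.6 and 63.9 CPM. SVEP1 fell by 1.06 (adjusted p = 0.00806), from 92.9, 71.3 and 50.9 CPM to 33.1, 35.5 and 31.8 CPM. Both calls were lost without the donor block and against set 1, where NR4A1 had 0.55 (adjusted p = 0.718) and SVEP1 -0.88 (adjusted p = 0.0480). NR4A1 also lost its call in the fit over 12 libraries (1.88, adjusted p = 0.0755), and without donor 1 SVEP1 was below 2-fold (-0.85). The difference between the responses to 2 and to 80 dyne/cm2 passed for 11 of 21 of these genes, 7 lower and 4 higher, where 37.1% of all genes passed (17.9% lower and 19.3% higher), with -5.86 for NR4A1 (adjusted p = 5.62e-04) and 1.75 for SVEP1 (adjusted p = 9.83e-04). That count was 3 without the donor block and 4 to 7 when a donor was left out.

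**Figure D5:**
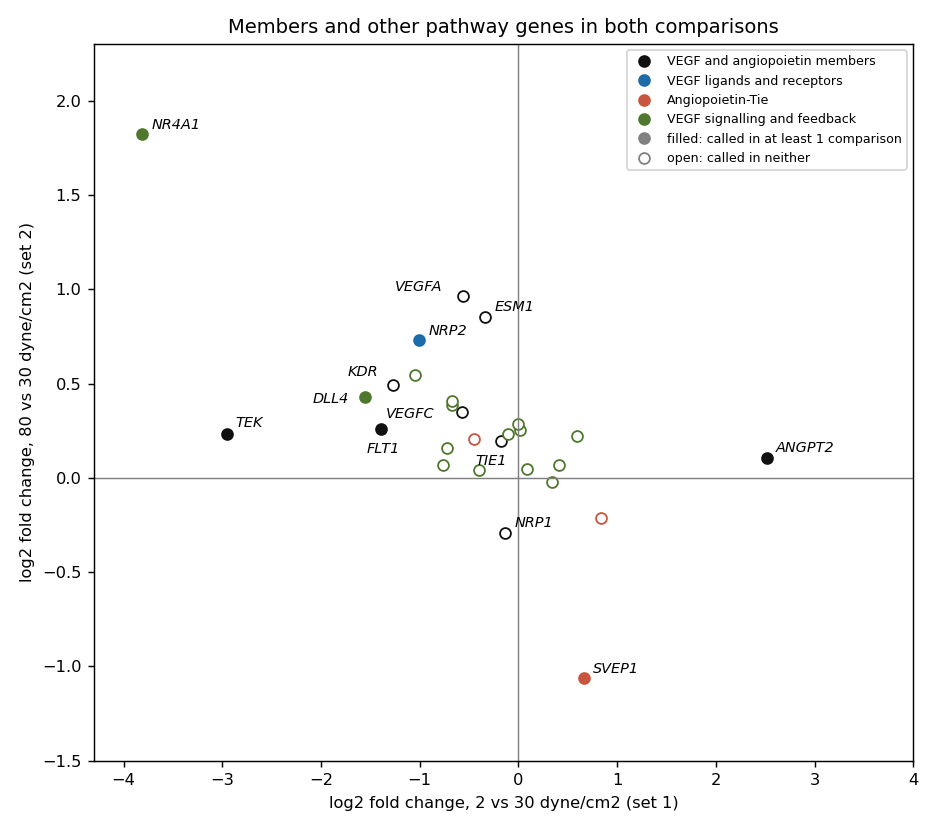
Log2 fold change at 2 vs. 30 dyne/cm2 (horizontal) against that at 80 vs. 30 dyne/cm2 (vertical) for the 9 genes (black) and the other pathway genes tested in both comparisons (blue for VEGF ligands and receptors, red for angiopoietin-Tie, green for VEGF signalling), filled where called in at least 1 comparison. NR4A1 lies far to the upper left, SVEP1 to the lower right, and TEK (0.23) and ANGPT2 (0.11) lie close to 0 on the vertical axis.

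Tip cells lead vascular sprouts under VEGF, and 12 of their marker genes besides ESM1 and ANGPT2 were tested at 2 vs. 30 dyne/cm2. Of these 4 were called, 2 in each direction, where 9.60% of all genes were called. ADM, which encodes adrenomedullin, rose by 3.15 (adjusted p = 0.00293), from 9.66, 6.43 and 2.07 CPM to 66.6, 62.3 and 21.8 CPM, and PDGFB, the ligand with which sprouts recruit pericytes, rose by 1.60 (adjusted p = 0.0296). NID2, a basement membrane protein, fell by 1.27 (adjusted p = 0.00741) and PLAUR, the urokinase receptor, fell by 2.81 (adjusted p = 0.0119). PDGFB lost its call without donor 3 (1.19, adjusted p = 0.0539), with an adjusted p of 1.55e-06 to 0.0539 over the alternatives, and the other 3 kept theirs. At 80 dyne/cm2 only PLAUR was called of 11 tested, where 2.20% of all genes were called. It rose by 1.15 (adjusted p = 0.00439), a call that was lost without the donor block, in the fit over 12 libraries, without donor 2 (0.98) and against set 1 (0.04, adjusted p = 0.958).

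VEGFA is a target of the hypoxia-inducible factors, and 5 of 10 listed target genes passed the filter. Of these 5, 2 were called at 2 dyne/cm2, where 9.60% of all genes were called. These were LDHA and NDRG1, which fell by 1.29 (adjusted p = 0.0119) and 1.30 (adjusted p = 0.00641). PDK1 (0.91, adjusted p = 0.00641) and P4HA1 (0.63, adjusted p = 0.0315) were higher, both below 2-fold. Against set 2 neither LDHA (-0.93) nor NDRG1 (-0.98) reached 2-fold, although both passed the adjusted p. At 80 dyne/cm2 none of the 5 was called by DESeq2 among the filtered genes or by edgeR's quasi-likelihood test, which called 2.20% of all genes. In the latter test 3 of the 5 had an unadjusted p under 0.05. For that unadjusted p the share of all genes was not determined. LDHA (0.84, adjusted p = 0.00486) and NDRG1 (0.68, adjusted p = 0.00923) were higher, as VEGFA was, and PDK1 was lower (-0.41, adjusted p = 0.0485). EGLN3, a prolyl hydroxylase that is itself a target of these factors, did not pass the filter and was called at 80 dyne/cm2 when no filter or the filter at 10 counts was used. Its low level averaged 1.11 CPM at 80 dyne/cm2 and 0.297 CPM in set 2.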

How the data were processed

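RNA of 12 cultures was sequenced as single-end reads after TruSeq library preparation. The authors used STAR for alignment to Sscrofa11.1, left out reads with multiple locations, summarized the rest over merged exons with featureCounts and deposited raw counts per gene. The strand setting is not given in the sources used here, so reads of overlapping antisense genes cannot be separated. Of 21153 identifiers, 14572 were paired with a symbol through a table of Ensembl names. Positions come from RefSeq on Sscrofa11.1.

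The quasi-likelihood test of edgeR 4.0.16 (R 4.3.3) was run on TMM-normalized counts with the donor as a block, and DESeq2 1.42.0 served as an alternative. The test took genes that reached 1 CPM in 3 or more of the libraries fitted, with Benjamini-Hochberg adjustment over all of them. The standard error is the log2 fold change divided by the square root of F. Correlations used log2 CPM with a prior count of 2. Replicate numbers mark donors, since the source names are shared within a number. After removal of group means, correlations were 0.672 to 0.876 for the 18 same-donor pairs of libraries and -0.552 to -0.190 for the 36 others. Because each mean was taken over only 3 libraries, positive values for same-donor pairs force the others to be negative on balance. The negative sign is thus no separate evidence for the pairing. The labels speak of a control for each condition but do not name its numbered set. Set 1 was taken for 2 and set 2 for 80 dyne/cm2, and the slide type given to each set rests on this choice.

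The genes, lists and tests were chosen with earlier results of these data known. Named are all 9 genes in every comparison, each listed gene called in either comparison, markers needed for a range, KLF2, and the 5 genes most correlated with the gene of largest change per comparison. Other genes named, such as those past the adjusted p alone, were chosen after their values were seen. The procedure was tested on simulated data. Alternatives were relative log expression (RLE) normalization, DESeq2, testing without a filter, a filter at 10 counts in each library, no donor block, each donor left out, the other control set, 1 fit over 12 libraries and the adjusted p alone. For genes besides the 9 and the pathway counts they were added after seeing the data. Intervals are for the fitted change over 3 donors and need not hold the value of each donor. At 2 dyne/cm2 donor 3 lay outside them for KDR (-2.43 against -2.21 to -0.33) and ANGPT2 (3.94 against 1.32 to 3.72). Totals were at least 29606854 counts per library. For low genes such as ANGPT2 the parts of depth and of donor spread in the precision were not separated.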

Additional observations from a re-analysis of the deposited data

How the results depend on the processing

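The replicate block (donor) was part of the main fit. Without it the counts of called genes fell to 2 of the 9 genes at 2 vs. 30 dyne/cm2 (from 3), to 1 other pathway gene at 2 dyne/cm2 (from 4), to 0 other pathway genes at 80 dyne/cm2 (from 2) and to 2 genes with differing responses (from 7). When 1 donor was left out, 2 to 4 of the 9 genes were called at 2 dyne/cm2, 0 to 1 at 80 dyne/cm2 (VEGFA, without donor 3), and 3 to 6 had differing responses. These fits keep 2 donors. Comparisons of 2 groups then have 1 residual degree of freedom, so their adjusted p can be extreme in both directions. The test of differing responses, over all 4 groups, has more. By the adjusted p alone 3 of the 9 genes passed at 80 dyne/cm2, where 8.40% of all genes passed. At 2 dyne/cm2 it was passed by 12 of the 21 other pathway genes tested and by 25.8% of all genes. For the other alternatives the share of all genes called is not given here, so their counts are no result about these genes. Against the other control set 0 other pathway genes were called at 80 dyne/cm2, and 1 in the fit over 12 libraries. With that set the sign turned for ESM1 (0.43) and SPRY4 (0.64) at 2 dyne/cm2, for the fibroblast marker COL1A2 (-0.11) at 2 dyne/cm2, and for FLT1 (-0.26), VEGFC (-0.026) and MCAM (-0.036) at 80 dyne/cm2. Without donor 1 the sign turned for ANGPT2 at 80 dyne/cm2 (-0.57, up to 0.46 without another donor). Without donor 2 it turned for NRP1 (-0.021, up to 0.20) and ANGPT2 (-0.073, up to 0.70) between the control sets. The causes were not tested. Of the single values of the 9 genes under these alternatives, 91 of 99 at 2 dyne/cm2 and 92 of 99 at 80 dyne/cm2 kept their direction and their side of the threshold. These counts do not measure how stable the sizes were. A gene that was not called counted as kept when its sign held and it stayed uncalled, as ESM1 did at 80 dyne/cm2 against set 1 (0.08). The alternative with the adjusted p alone uses the main fit, so no sign could turn in it. With RLE normalization, no filter or the filter at 10 counts, no call of the 9 genes changed. Low counts limit ANGPT2 and FLT4, and 3 donors limit every interval.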

Other observations

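Genes around the VEGF and platelet-derived growth factor (PDGF) receptors, chosen after their values were seen, also moved with WSS. EMCN, an endothelial sialomucin known to take part in the surface handling of VEGFR2, stood at 25.7, 7.23 and 35.7 CPM at 2 dyne/cm2 and at 49.3, 11.95 and 151 CPM in set 1. It fell by 1.25 at 2 dyne/cm2 (adjusted p = 0.0341) and rose by 2.33 at 80 dyne/cm2 (adjusted p = 0.0112), from 20.7, 12.4 and 78.3 CPM to 76.3, 152 and 242 CPM, and the difference between its responses was -3.84 (adjusted p = 0.00462). The fall was lost under 5 of 10 alternatives, among them without donor 2 (-1.49, adjusted p = 0.0513), without donor 3 (-0.83) and against set 2 (-0.53, adjusted p = 0.244), with an adjusted p of 8.70e-05 to 0.298 over all of them. The rise was lost without the donor block (2.07, adjusted p = 0.576) and against set 1 (1.55, adjusted p = 0.330).

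PDGFRB, a receptor of PDGFB that marks pericytes, rose by 2.41 at 2 dyne/cm2 (adjusted p = 0.00758), from 1.24, 0.207 and 0.960 CPM to 4.93, 1.03 and 6.999 CPM, and PDGFRA rose by 1.09 (adjusted p = 0.0300). Only 1 library of set 1 reached 1 CPM of PDGFRB, which thus passed the filter through the libraries at 2 dyne/cm2, where it is high, and without a filter its value was 2.39 (adjusted p = 0.00599). PDGFRB lost its call without the donor block (2.44, adjusted p = 0.116), with an adjusted p of 9.20e-08 to 0.116 over its alternatives. PDGFRA lost its call without donor 1 (1.02, adjusted p = 0.114), without donor 3 (0.93, adjusted p = 0.0827), without the donor block and against set 2, with an adjusted p of 0.0107 to 0.116. Both receptors were thus higher in the comparison in which their ligand gene PDGFB rose. Markers of other cell types moved beside them, and their part was not tested. The 7 smooth muscle and pericyte markers, PDGFRB among them, summed to 2.29 to 8.25 CPM at 2 dyne/cm2 and 1.53 to 2.15 CPM in set 1, and MYH11 averaged 0.562 CPM against 0.401 CPM and TAGLN 0.456 CPM against 0.335 CPM. ACTA2, RGS5, CNN1 and DES stood at 0 to 0.437 CPM. Of the fibroblast markers, DCN averaged 2.24 CPM against 0.366 CPM, and COL1A1 (1.44, adjusted p = 0.0590) and COL1A2 (0.96, adjusted p = 0.0325) had positive values in each donor, with -0.11 for COL1A2 against set 2 (adjusted p = 0.803), whereas LUM had a value of -0.11 (adjusted p = 0.763).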
